A study of Mus musculus with 4 samples.

Results

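The autophagy genes described here are 41 genes of the 50679 in the deposited expression table of mouse mammary tumour cells. They were listed by name, and the list was chosen with earlier results of these data known. The list held 5 genes of the ATG8 family, 11 of ATG conjugation and ATG4 processing, 5 of initiation and 6 of nucleation. It also held 6 of lipid transfer and phosphoinositide binding, 6 cargo receptors and mitophagy genes, and 2 transcription factors. All 41 had a mean of at least 1 FPKM (a level corrected for transcript length and for the number of mapped fragments) and were tested among 12767 genes. Between tumour cells with wild-type PCNA and with PCNA 211F, 27 of the 41 had a negative difference (lower in 211F) and the median was -0.12 on the log2(FPKM + 1) scale, against 46.9% of all tested genes and a median of 0.03. No gene passed the test (0 of 41 members; 0% of all tested genes; limma, Benjamini-Hochberg adjusted p = 0.9999 for every member). Transcripts of Map1lc3a, Gabarapl1 and the receptor gene Calcoco1 had the largest differences, with both 211F libraries below both WT libraries.

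Macroautophagy encloses cytoplasm in a double membrane, the autophagosome, which then fuses with a lysosome. A kinase complex around ULK1 starts the process, a lipid kinase complex around Beclin 1 marks the membrane with phosphatidylinositol 3-phosphate, and a ubiquitin-like conjugation system attaches the ATG8 proteins (the LC3 and GABARAP subfamilies) to the lipid phosphatidylethanolamine. Cargo receptors such as p62 bind the ATG8 proteins and the material to be degraded, and the factors TFEB and TFE3 drive transcription of autophagy and lysosome genes. In mammary tumour models autophagy is studied as a means by which tumour cells survive nutrient shortage.

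The groups were 2 libraries of PCNA WT and 2 of PCNA 211F, all from PyMT tumour cells, in which the polyoma middle T oncogene drives mammary tumours. PCNA is the clamp that tethers DNA polymerases to DNA, and 211F is the form of it named in the labels. The labels give mice of 10 weeks for every sample, tissue dissociation, capture with an EpCAM antibody, a luminal subtype, and cells plated at a density of 100000 with fetal serum. The promoter that drives the oncogene and whether cells of several animals were pooled are not stated in the labels. The series calls the libraries of a genotype independent biological repeats without naming animals. A limma p-value here rests on library-to-library spread, with each gene's variance drawn towards a trend over all tested genes. Whether the spread between libraries is spread between animals is not known, and it includes the marker differences between libraries given below. In each pair of values below, replicate 1 is given first.

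Pcna itself was at 155, 147, 173 and 120 FPKM in the order WT 1, WT 2, 211F 1, 211F 2, which does not check the genotype labels, since a level carries no sequence. The library labelled WT 2 went against its epithelial label. The summed level of 12 epithelial markers was 3230 and 7.30 FPKM in the WT libraries and 3310 and 3620 in the 211F libraries, and Epcam itself stood at 444, 0.893, 77.3 and 450 FPKM in that order. For 13 mesenchymal and fibroblast markers the sums were 276, 3530, 4270 and 44.5 FPKM, so 211F 1 had high sums of both kinds. Markers within a sum did not all go together. Vim was high in WT 2 and 211F 1 (1634 and 1856 FPKM), but Col1a1 was at 437 in WT 2 and 2.70 in 211F 1. The epithelial sum of 211F 1 held Krt14 at 1297 FPKM but Cldn7 at 5.07. In WT 1 and 211F 2 Cldn7 was at 60.1 and 85.1 FPKM. Sums of the endothelial markers were at most 2.05 FPKM, of the myeloid markers at most 4.44, and of the lymphoid and adipocyte markers at most 0.0645, with 2 of 5 lymphoid and 2 of 4 adipocyte markers at 0 in every library. In these bulk samples fewer cells of a type and less RNA per cell cannot be told apart, and the part of these markers in the autophagy differences was not tested. The sums of all FPKM were 544399 to 564977, and 3 fragments in a transcript of 1 kb corresponded to 0.0496 to 0.0909 FPKM. The lowest value of any autophagy gene was 1.75 FPKM (Atg4c in WT 1), so no member was near that level.

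Both 211F libraries were below both WT libraries in 11 of the 41 genes (26.8%), against 11.6% of all tested genes. Both 211F libraries were above in 2 (4.88%), against 15.2% of all tested genes. At an unadjusted limma p under 0.05 there were 3 members, all negative, against 1.89% of all tested genes. Without WT 2, 24 of 41 members were negative and the median difference was -0.08. Without 211F 1 there were again 24, with a median of -0.04, and without 211F 2 there were 31, with a median of -0.26.

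**Figure D1:**
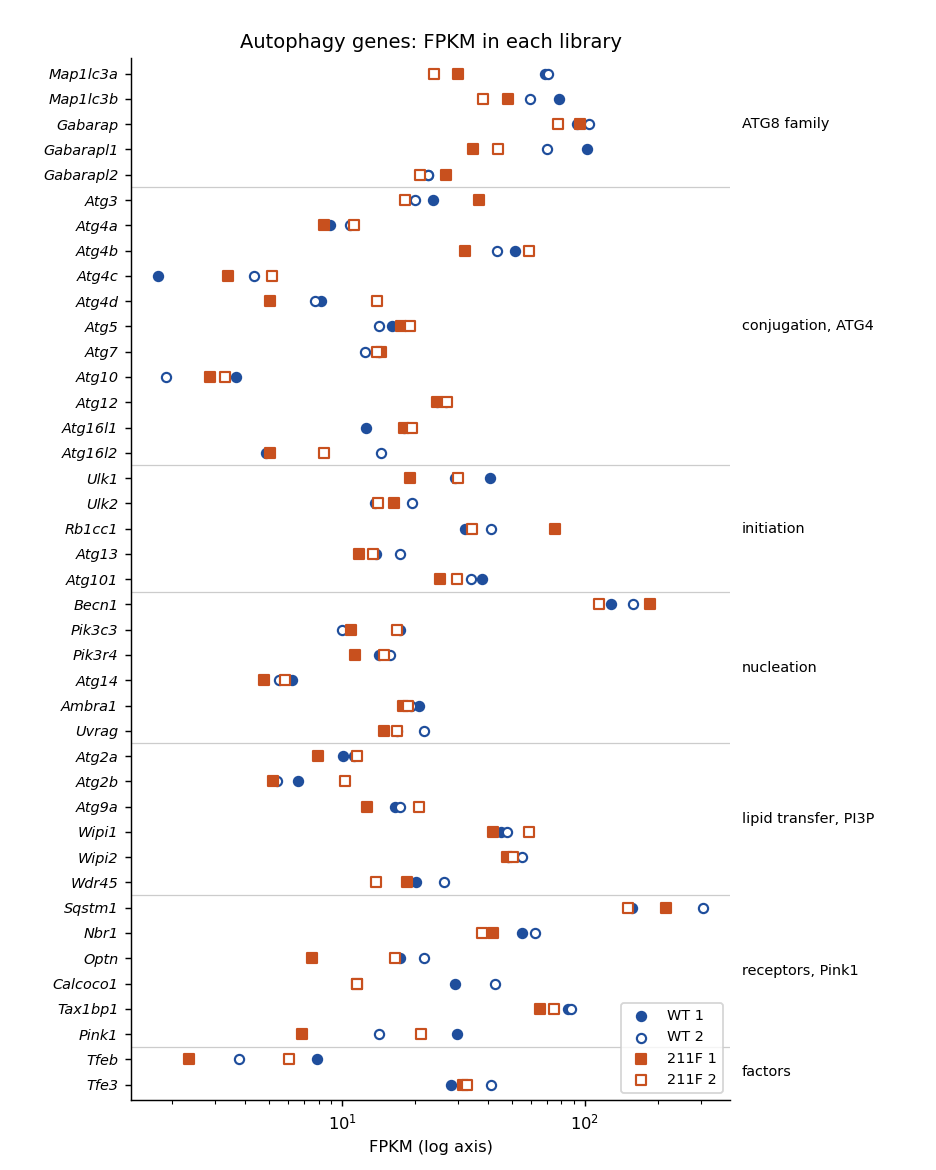
FPKM of the 41 autophagy genes on a log axis, ordered by role. Each symbol is a library: blue circles are WT and orange squares 211F, filled for replicate 1 and open for replicate 2. In Map1lc3a, Map1lc3b, Gabarapl1 and Calcoco1 the squares lie left of the circles, while in Gabarap and Gabarapl2 they mix.

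**Figure D2:**
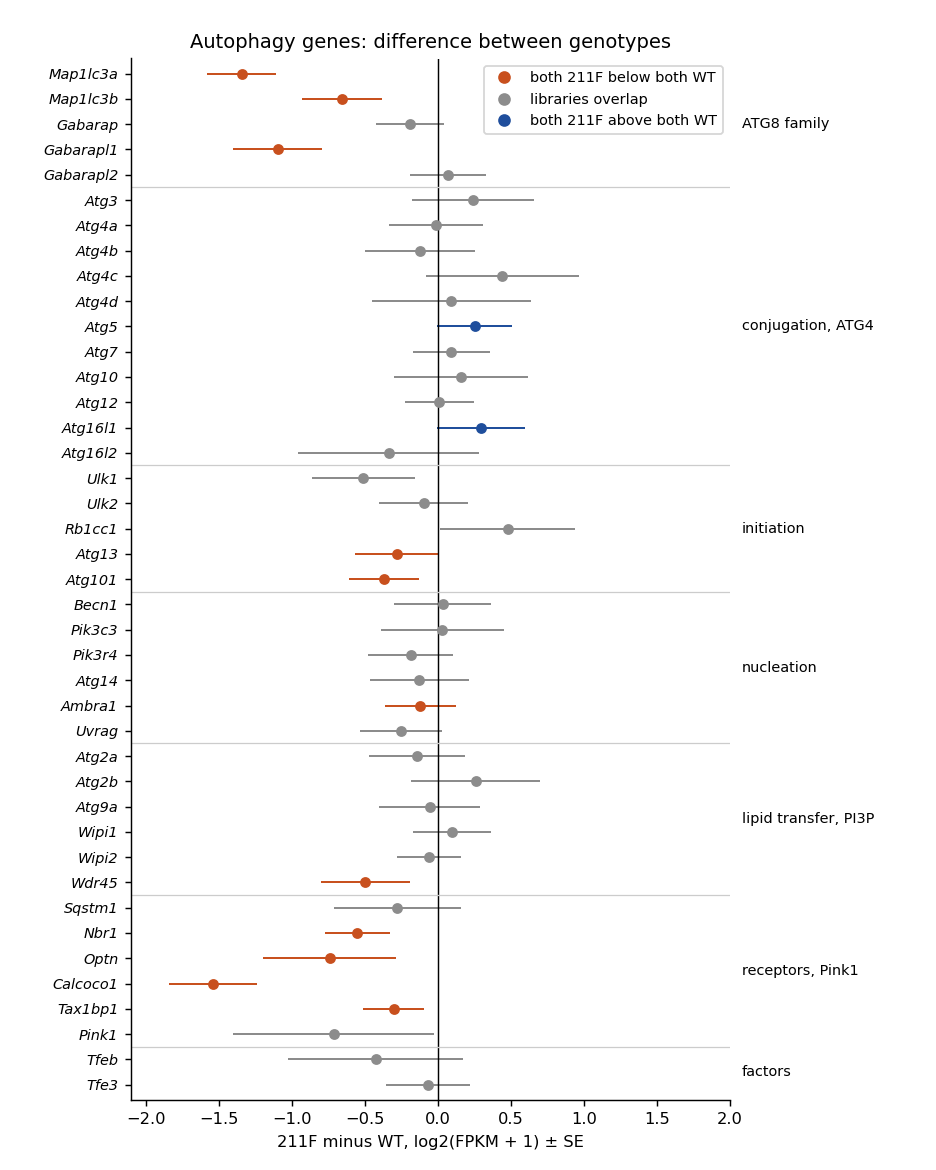
Difference of 211F minus WT on the log2(FPKM + 1) scale with its standard error from limma (2 libraries a group), ordered by role. Orange marks the 11 genes with both 211F libraries below both WT libraries and blue the 2 with both above. The largest negative value is -1.54, for Calcoco1.

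The ATG8 family was split. Map1lc3a, Map1lc3b and Gabarapl1 were lower in both 211F libraries (60% of the 5 genes, against 11.6% of all tested genes). Gabarap and Gabarapl2 were at overlapping levels. Map1lc3a (ENSMUSG00000027602; GRCm38 chromosome 2, 155276297 to 155278073, plus strand) encodes LC3A, an LC3 protein of the autophagosome membrane. It stood at 68.6 and 70.7 FPKM in the WT libraries and 30.1 and 24.0 in the 211F libraries. Both WT libraries nearly coincided, and the highest 211F value was below the lowest WT value. Group means were 69.6 ± 1.45 FPKM (WT) and 27.0 ± 4.31 FPKM (211F; SD, n = 2 each), a difference of -1.34 ± 0.24 (SE; limma unadjusted p = 0.00473, adjusted p = 0.9999). Without WT 2 the difference was -1.32 ± 0.31.

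Gabarapl1 (ENSMUSG00000030161; chromosome 6, 129533160 to 129542346, plus strand) encodes a GABARAP-type protein that binds the same receptor motifs. It stood at 102 and 69.5 FPKM in the WT libraries and 34.6 and 43.8 in the 211F libraries. The groups did not overlap, and WT 1 was the highest library. The difference was -1.10 ± 0.31 (SE; limma unadjusted p = 0.0226, adjusted p = 0.9999). With a library left out it ranged from -1.37 (without WT 2) to -0.82 (without WT 1). Exons of Gabarapl1 overlap a noncoding gene on the opposite strand, so its level is uncertain if counting did not use strand.

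Map1lc3b (ENSMUSG00000031812; chromosome 8, 121590361 to 121598760, plus strand) encodes LC3B, the form most used as an autophagosome marker. It stood at 78.2 and 59.3 FPKM in the WT libraries and 48.1 and 38.1 in the 211F libraries. The libraries formed a graded series in which the lowest WT and the highest 211F value lay close together. The difference was -0.66 ± 0.27 (SE; limma adjusted p = 0.9999). Gabarap, the founding GABARAP protein and the most abundant ATG8 transcript by mean FPKM over the 4 libraries (in WT 1 Gabarapl1 was higher), stood at 93.0 and 104 FPKM (WT) against 95.8 and 77.2 (211F). Gabarapl2 (GATE-16) stood at 22.5 and 22.5 FPKM (WT) against 26.8 and 21.0 (211F). For these 2 genes the differences were -0.19 ± 0.23 and 0.07 ± 0.26 (SE), within the spread between libraries.

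Because FPKM is per length, the 5 ATG8 genes can be summed. The sum was 364.6 and 326.2 FPKM in the WT libraries and 235.4 and 204.0 in the 211F libraries, so both 211F libraries were below both WT libraries. The composition also differed between libraries. Map1lc3a made up 18.8% and 21.7% of the sum in WT against 12.8% and 11.8% in 211F. Gabarap made up 25.5% and 31.9% against 40.7% and 37.8%, and Gabarapl2 6.17% and 6.91% against 11.4% and 10.3%. Gabarapl1 made up 28.1% and 21.3% in WT against 14.7% and 21.5% in 211F, so the groups overlapped (two-sided exact permutation p = 0.667; 0.733 adjusted over the 11 sums, shares and ratios tested). Map1lc3b held a share between 18.2% and 21.4% (exact permutation p = 1). The change in the Map1lc3a share was -7.97 percentage points, and -6.55 without WT 2. For the sum and for the shares of Map1lc3a, Gabarap and Gabarapl2 the two-sided exact permutation test gave p = 0.33, the smallest that 2 against 2 libraries can give (0.524 adjusted over the 11 sums, shares and ratios tested).

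**Figure D3:**
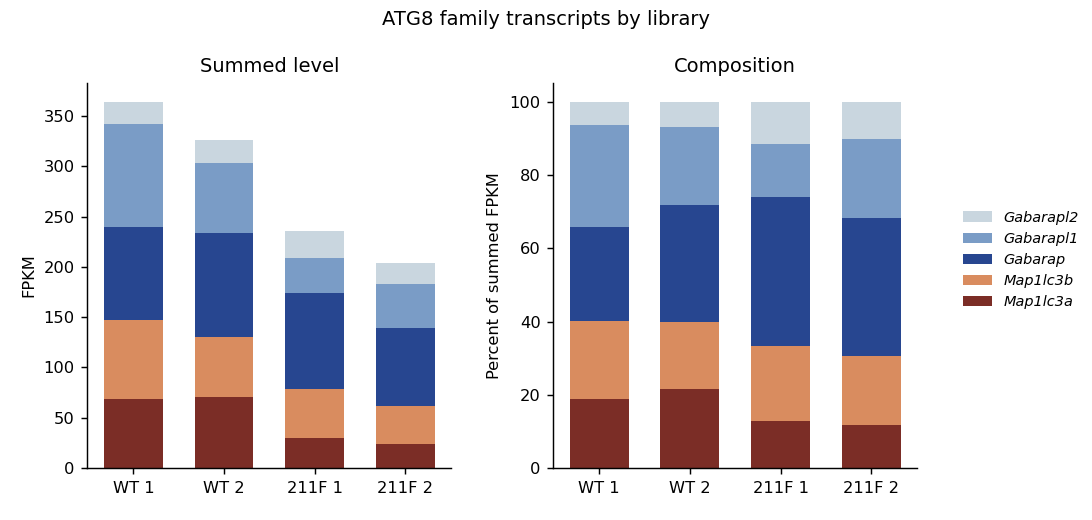
Stacked bars of the 5 ATG8 transcripts in each library, as FPKM (left) and as percent of their sum (right). The bars reach 364.6 and 326.2 FPKM for WT and 235.4 and 204.0 for 211F, and the Map1lc3a part at the bottom is 11.8% to 12.8% of the 211F bars against 18.8% to 21.7% of the WT bars.

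Promoter sequences from RefSeq are shown for Map1lc3b and Gabarapl1, the ATG8 genes with separate groups that the promoter table holds, and for Calcoco1, the member with the largest difference. Each run begins 250 bases before the RefSeq start and ends before that start or the GENCODE start given with the genes, whichever comes first (5′ to 3′ on the gene's strand, GRCm38.p6). It holds 173 bases for Map1lc3b, 218 for Gabarapl1 and 250 for Calcoco1. Capitals mark CACGTG, the E-box core bound by TFEB, TFE3 and other bHLH factors, and none occurs in these 3 runs. They lie at chr8:121590188-121590360 (plus), chr6:129532942-129533159 (plus) and chr15:102722179-102722428 (minus).
Map1lc3b: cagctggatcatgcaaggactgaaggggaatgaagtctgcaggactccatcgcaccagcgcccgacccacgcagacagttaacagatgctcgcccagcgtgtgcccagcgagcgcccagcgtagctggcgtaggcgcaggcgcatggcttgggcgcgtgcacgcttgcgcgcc
Gabarapl1: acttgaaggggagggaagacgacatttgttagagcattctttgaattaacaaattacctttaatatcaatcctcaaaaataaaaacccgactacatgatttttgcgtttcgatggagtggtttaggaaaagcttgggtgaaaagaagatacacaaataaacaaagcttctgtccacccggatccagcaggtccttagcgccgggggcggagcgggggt
Calcoco1: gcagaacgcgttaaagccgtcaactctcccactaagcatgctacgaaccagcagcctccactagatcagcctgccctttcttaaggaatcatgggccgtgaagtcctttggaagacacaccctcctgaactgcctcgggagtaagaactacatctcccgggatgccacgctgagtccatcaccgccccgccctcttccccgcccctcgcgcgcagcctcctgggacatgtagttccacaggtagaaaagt

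Of the 11 conjugation genes, 8 had a positive difference and 3 a negative one (27.3%, against 46.9% of all tested genes), with a median of 0.09. The 2 members of the whole set that were higher in both 211F libraries were among them. They were 18.2% of the 11 genes, close to the 15.2% of all tested genes. None passed the test, and Atg3, Atg4c, Atg4d, Atg10 and Atg12 turned to a negative difference when a library was left out. Atg5, whose protein joins ATG12 in the conjugating complex, stood at 16.1 and 14.3 FPKM (WT) against 17.5 and 19.0 (211F) (0.25 ± 0.26, SE). Atg16l1, the scaffold of that complex, stood at 12.5 and 18.0 against 18.0 and 19.3 FPKM, so WT 2 lay at the level of 211F 1 (18.00 against 18.02 FPKM) and WT 1 set the group apart. Atg12 itself had the smallest ratio of highest to lowest library of the 41 genes (1.11), at 26.8, 24.5, 24.6 and 27.1 FPKM. Atg7, the activating enzyme of both conjugation arms, was at 12.4 to 14.5 FPKM in every library.

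Atg3, the enzyme that transfers ATG8 to lipid, stood at 23.6 and 20.0 FPKM in the WT libraries and 36.5 and 18.2 in the 211F libraries, so the highest and the lowest value both came from 211F. Atg10, the enzyme that transfers ATG12 to ATG5, was low, at 1.88 to 3.66 FPKM. The ATG4 proteases trim ATG8 precursors and release ATG8 from membranes. Atg4b, the most abundant of them by FPKM, stood at 51.5, 43.6, 32.0 and 58.9 FPKM in the order WT 1, WT 2, 211F 1, 211F 2, and Atg4d at 8.17, 7.70, 5.06 and 13.9. In both the WT values lay between the 211F values. Atg4a was at 8.42 to 11.2 FPKM and Atg4c at 1.75 to 5.14, without separation of the groups. Atg16l2, a paralogue of Atg16l1, was at 4.88 FPKM in WT 1 and 14.5 in WT 2 against 5.06 and 8.44 in 211F, so its spread lay mainly between the WT libraries.

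The promoters of Atg5 and Atg3 are shown because, unlike the 3 above, they hold CACGTG. Picked for the motif, they do not tie it to a direction of difference. The run before Atg5 lies at chr10:44268089-44268338 (plus, 250 bases) and that before Atg3 at chr16:45158579-45158784 (plus, 206 bases), ended by the same rule, on GRCm38.p6 from RefSeq, with CACGTG in capitals.
Atg5: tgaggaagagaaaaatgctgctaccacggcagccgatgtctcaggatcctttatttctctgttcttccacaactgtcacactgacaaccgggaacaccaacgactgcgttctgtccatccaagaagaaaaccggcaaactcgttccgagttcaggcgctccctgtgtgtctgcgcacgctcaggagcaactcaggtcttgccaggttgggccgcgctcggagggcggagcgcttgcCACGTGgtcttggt
Atg3: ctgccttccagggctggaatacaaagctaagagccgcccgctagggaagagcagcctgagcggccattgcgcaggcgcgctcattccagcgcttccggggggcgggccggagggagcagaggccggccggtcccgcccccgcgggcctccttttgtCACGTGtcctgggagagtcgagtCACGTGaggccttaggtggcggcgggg

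Over the whole window of 250 bases before to 50 after the RefSeq start, 35 of the 41 members were in the table, and Map1lc3a, Atg12, Atg16l1, Rb1cc1, Becn1 and Pik3c3 were not. CACGTG occurred on either strand in 4 of the 35 (11.4%; Atg3, Atg5, Atg7 and Atg14), against 11.9% of 9458 tested genes and 8.09% of all 27025 genes in the table. The longer CLEAR palindrome (CACGTG with GT before and AC after it) occurred in 0 of the 35, against 0.814% of the tested genes. The FOXO motif GTAAACA occurred in 0 of the 35 against 3.10% of the tested genes, and the cAMP response element TGACGTCA in 2 (Atg5 and Atg16l2; 5.71%) against 3.67%. The CACGTG share was close to the background. Such matches describe letters in these windows and do not show binding.

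In the initiation complex 4 of 5 genes had a negative difference (80%, against 46.9% of all tested genes). Atg13 and Atg101 were lower in both 211F libraries (40% of the 5 genes, against 11.6% of all tested genes). Atg101, a small subunit that stabilises ATG13, stood at 37.6 and 33.8 FPKM (WT) against 25.3 and 29.7 (211F) (-0.37 ± 0.24, SE). Atg13, the adaptor of the kinase, stood at 13.9 and 17.3 against 11.8 and 13.4 FPKM (-0.28 ± 0.28, SE). Neither difference passed the test. The kinase gene Ulk1 stood at 40.8 and 29.3 FPKM in the WT libraries and 19.1 and 30.1 in the 211F libraries, so WT 2 and 211F 2 nearly coincided. Its paralogue Ulk2 was at 13.7 to 19.3 FPKM, and the ratio of Ulk1 to Ulk2 was 2.98 and 1.51 (WT) against 1.17 and 2.14 (211F) (two-sided exact permutation p = 0.667; 0.733 adjusted over the same 11 tests).

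Rb1cc1 encodes FIP200, the large scaffold of the ULK1 complex, and was the highest initiation gene by mean FPKM. It stood at 32.0, 41.2, 75.6 and 34.3 FPKM in the order WT 1, WT 2, 211F 1, 211F 2. Only 211F 1 was high, and the difference of 0.48 ± 0.46 (SE) was -0.08 without that library. Its exons overlap an antisense gene.

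Nucleation genes were nearly flat between the groups, with differences from -0.25 to 0.03. Becn1 (ENSMUSG00000035086; chromosome 11, 101285952 to 101302286, minus strand) encodes Beclin 1, the regulatory core of the lipid kinase complex, and was the second most abundant member by FPKM. It stood at 128 and 157 FPKM in the WT libraries and 185 and 114 in the 211F libraries, a difference of 0.03 ± 0.33 (SE; limma adjusted p = 0.9999). The 211F libraries enclosed the WT libraries. Exons of Becn1 overlap Cntd1 on the opposite strand, with the same limit. The direction for Becn1 turned with quantile normalization (-0.04).

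Pik3c3, the catalytic subunit VPS34, stood at 17.4 and 16.8 FPKM in WT 1 and 211F 2 and at 10.0 and 10.9 in WT 2 and 211F 1. The groups overlapped. The mesenchymal marker sums of these pairs of libraries were 276 and 44.5 FPKM and 3530 and 4270 FPKM, and their part in the Pik3c3 level was not tested. Its partner Pik3r4 was at 11.3 to 15.7 FPKM, and Atg14, which targets the complex to the endoplasmic reticulum, at 4.78 to 6.22. Uvrag, which replaces ATG14 in the endosomal complex, was at 16.8 and 21.7 FPKM (WT) against 14.9 and 16.9 (211F). Ambra1, a scaffold that links Beclin 1 to ubiquitin ligases, was at 20.7 and 19.3 against 17.9 and 18.7 FPKM. Ambra1 counted among the 11 genes with separate groups, but its difference was only -0.12 ± 0.24 (SE).

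The genes of lipid transfer and phosphoinositide binding had differences from -0.50 to 0.26. The most abundant by mean FPKM, Wipi2, which recruits ATG16L1 to the growing membrane, stood at 48.3, 55.0, 47.9 and 50.8 FPKM in the order WT 1, WT 2, 211F 1, 211F 2. Wdr45 (WIPI4), which works with ATG2 at the membrane edge, was the member of this role that was lower in both 211F libraries, at 20.2 and 26.2 against 18.5 and 13.9 FPKM (-0.50 ± 0.30, SE). Exons of Wdr45 overlap a gene on its own strand, so this level is uncertain. The same limit holds for Atg9a below. Wipi1 was at 42.0 to 58.9 FPKM. The lipid transfer genes Atg2a and Atg2b were at 7.94 to 11.5 and 5.20 to 10.3 FPKM, and Atg9a, the transmembrane scramblase of the seed vesicles, at 12.6 to 20.8. In Wipi1, Atg2a, Atg2b and Atg9a the lowest library was 211F 1 and the highest 211F 2.

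All 6 receptor and mitophagy genes had a negative difference (median -0.63), against 46.9% of all tested genes. In 4 of them (66.7%) both 211F libraries were below both WT libraries, against 11.6% of all tested genes. The differences of Sqstm1 and Pink1 turned positive when WT 2 and 211F 1, respectively, were left out. Calcoco1 (ENSMUSG00000023055; chromosome 15, 102706777 to 102722178, minus strand) encodes a receptor for selective autophagy of the endoplasmic reticulum. It stood at 29.2 and 42.8 FPKM in the WT libraries and 11.5 and 11.5 in the 211F libraries. The 211F libraries coincided and lay far below the WT libraries. Group means were 36.0 ± 9.63 FPKM (WT) and 11.5 ± 0.00849 FPKM (211F; SD, n = 2 each), a difference of -1.54 ± 0.30 (SE; limma unadjusted p = 0.00691, adjusted p = 0.9999). Without WT 2 the difference was -1.27 ± 0.32.

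Nbr1, a ubiquitin-binding receptor related to p62, stood at 55.0 and 62.2 FPKM (WT) against 41.7 and 37.6 (211F) (-0.55 ± 0.22, SE). Tax1bp1, a receptor for protein aggregates, stood at 85.6 and 87.7 against 65.5 and 74.9 FPKM (-0.30 ± 0.21, SE). In both genes each pair of libraries lay close together, but neither passed the test. Optn, a ubiquitin-binding receptor that acts in mitophagy, stood at 17.4 and 21.7 FPKM (WT) against 7.54 and 16.5 (211F). Most of its difference (-0.74 ± 0.46, SE) came with 211F 1, and it was -0.22 ± 0.41 without that library.

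Sqstm1 (ENSMUSG00000015837; chromosome 11, 50199366 to 50210827, minus strand) encodes p62, the classic receptor for ubiquitinated cargo, and was the most abundant member by mean FPKM. It stood at 156 and 306 FPKM in the WT libraries and 217 and 150 in the 211F libraries. WT 1 and 211F 2 were low and nearly equal, and WT 2 and 211F 1, the libraries with high mesenchymal marker sums, were higher. The part of these marker sums in the Sqstm1 level was not tested. The difference of -0.28 ± 0.44 (SE) turned to 0.21 without WT 2. Pink1, the kinase that marks damaged mitochondria, had the widest range of the 41 genes, at 29.8 and 14.2 FPKM in the WT libraries and 6.83 and 21.2 in the 211F libraries (the highest was 4.36 times the lowest). Its order set WT 1 and 211F 2 above WT 2 and 211F 1, the reverse of Sqstm1. The Pink1 difference of -0.71 ± 0.69 (SE) was 0.04 without 211F 1.

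Ratios between related genes are given as a description, with pairs chosen after earlier results of these data were known. The ratio of Calcoco1 to Tax1bp1 FPKM was 0.341 and 0.488 (WT) against 0.176 and 0.154 (211F), and that of Map1lc3a to Map1lc3b was 0.878 and 1.19 against 0.625 and 0.630. For Gabarapl1 over Gabarap the values were 1.1 and 0.668 against 0.361 and 0.568. In all 3 ratios the groups did not overlap, and each had a two-sided exact permutation p = 0.33, the smallest possible (0.524 adjusted over the same 11 tests).

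The transcription factors did not separate the groups. Tfeb stood at 7.92 and 3.77 FPKM in the WT libraries and 2.35 and 6.04 in the 211F libraries, which again set WT 1 and 211F 2 above the other 2 libraries. Its difference was -0.43 ± 0.60 (SE). Tfe3, the more abundant of the pair by FPKM, stood at 27.98 and 40.9 FPKM (WT) against 31.5 and 32.8 (211F) (-0.07 ± 0.29, SE). The ratio of Tfeb to Tfe3 was 0.283 and 0.0922 in the WT libraries and 0.0744 and 0.184 in the 211F libraries (two-sided exact permutation p = 0.667; 0.733 adjusted over the 11 tests).

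Autophagy genes varied less across the 4 libraries than the tested genes in general. The median ratio of the highest to the lowest library was 1.65 for the members and 1.90 for all tested genes, and 1 of 41 members reached a ratio of 4, against 23.1% of tested genes. The median gap between both WT libraries was 0.25 log2 units for the members and 0.48 for all genes, and between both 211F libraries 0.34 and 0.40. Genes are not independent replicates, so these are descriptions without a test. They were also not matched for level. The median of the mean FPKM was 19.1 for the members and 15.4 for all tested genes, and the lowest mean was 2.93 and 1. The library 211F 1 held the lowest value in 20 of the 41 members (48.8%), against 23.1% of all tested genes. WT 2 held the highest value in 15 members (36.6%), against 30.2%. The median FPKM of the members was 20.7 and 21.7 in the WT libraries and 17.9 and 19.0 in the 211F libraries, while that of all tested genes was between 14.2 and 15.0.

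Other genes of the pathway were taken from 7 lists. Of their 140 genes 132 were tested, 0 passed the test, 81 had a negative difference and the median was -0.08 (46.9% negative and a median of 0.03 over all tested genes). Both 211F libraries were below both WT libraries in 27 of the 132 (20.5%, against 11.6% of all tested genes) and above in 8 (6.06%, against 15.2%). Regulators of transcription (9 of 13 negative, median -0.18), nutrient sensing genes (19 of 31, -0.15), lysosome genes (23 of 33, -0.11) and organelle receptors (12 of 17, -0.09) had negative medians. The medians were near 0 for fusion genes (9 of 17 negative, median -0.002), membrane source factors (5 of 12, 0.04) and a mixed list of other regulators (4 of 9, 0.03). The mixed list holds Bcl2, Mcl1, Nedd4, Dapk1, Dapk3 and Usp10 among others, and not all of its genes restrain autophagy. Without WT 2 the median was 0.05 for nutrient sensing genes and 0.12 for lysosome genes, so their direction turned. Without 211F 1 these medians were 0.02 and 0.009, and that of the regulators of transcription was -0.005. The median of the mixed list of other regulators was 0.41 without WT 1 and -0.31 without WT 2. That of the membrane source factors was -0.19 without WT 1, and that of the fusion genes -0.11 without WT 1 and -0.19 without 211F 2. The list medians thus depended on single libraries.

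**Figure D4:**
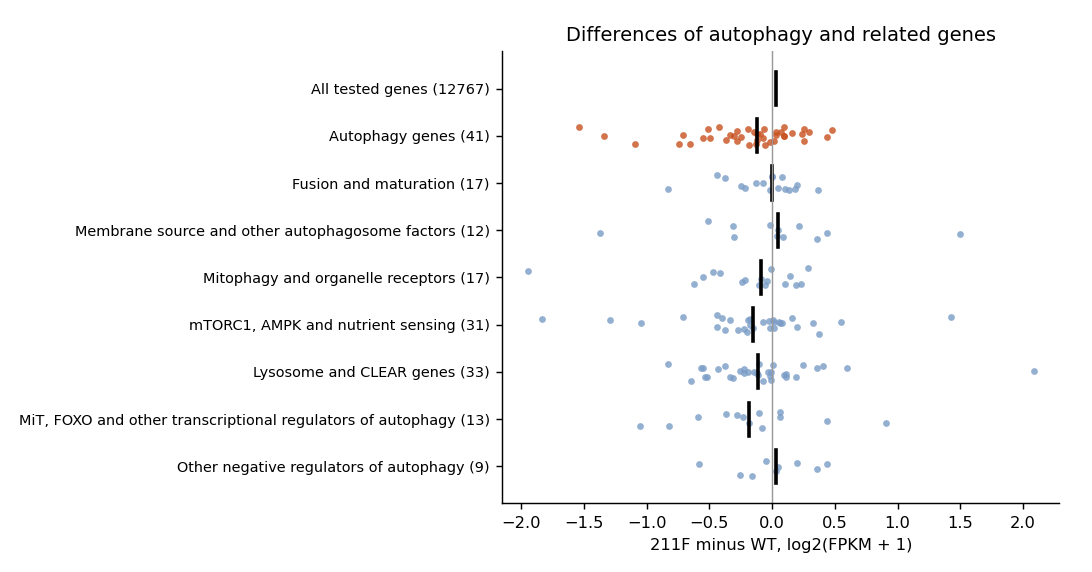
Differences of 211F minus WT on the log2(FPKM + 1) scale for the autophagy genes (orange) and 7 lists of related genes (blue), with the number tested in parentheses. Each point is a gene, spread vertically only to be visible, and black bars are medians: 0.03 for all tested genes (points not drawn) and -0.12 for the autophagy genes. The row drawn as other negative regulators is a mixed list, and not all of its genes restrain autophagy.

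Among organelle receptors the genes of smallest p were the mitophagy receptors Bnip3 and Bnip3l. Bnip3 stood at 48.3 and 176 FPKM (WT) against 20.4 and 26.2 (211F) (-1.95 ± 0.69, SE), and Bnip3l at 98.2 and 123 against 71.2 and 78.2 (-0.55 ± 0.23, SE). Both were lower in both 211F libraries, but neither passed the adjusted test. Of the 17 tested organelle receptors, 4 (23.5%) were lower in both 211F libraries, against 11.6% of all tested genes. A positive difference was found in 5 of the 17. Among nutrient sensing genes Sesn1, a stress-induced inhibitor of mTORC1 signalling, stood at 13.1 and 13.4 against 5.10 and 4.56 FPKM (-1.29 ± 0.30, SE). Rragb, a Rag GTPase that recruits mTORC1 to lysosomes, stood at 0.803 and 0.151 against 3.31 and 2.47 FPKM. Both WT values of Rragb were under 1 FPKM and its mean passed the filter only through 211F, so its difference is not given.

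Lysosome genes of smallest p were Psap, the precursor of saposins, at 356 and 378 FPKM (WT) against 288 and 226 (211F), and Glb1, a beta-galactosidase, at 23.3 and 28.2 against 15.7 and 18.7. Among regulators Foxo3, a FOXO factor that activates autophagy genes, stood at 25.7 and 25.1 against 9.35 and 20.6 FPKM, and Max, a bHLH partner of MYC, at 41.7 and 33.8 against 55.3 and 47.6. Wdr45b (WIPI3) stood at 122 and 65.9 FPKM (WT) against 59.4 and 19.2 (211F), and Nrbf2, a subunit of the Beclin 1 complex, at 16.3 and 16.1 against 10.8 and 11.4. Plekhm1, an adaptor of lysosome fusion, was high in WT 1 alone, at 32.2 FPKM against 10.1, 8.48 and 11.3 in WT 2, 211F 1 and 211F 2. Rubcn, which restrains fusion, stood at 20.3 and 16.8 FPKM (WT) against 20.7 and 28.2 (211F). The ubiquitin ligase gene Nedd4 stood at 543 and 401 against 337 and 288 FPKM, and the BCL2 family gene Mcl1 at 61.6 and 71.8 against 89.6 and 91.3. None of these genes passed the limma test (adjusted p = 0.9999 for each).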

How the data were processed

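RNA was measured in 4 libraries of PyMT mammary tumour cells, 2 WT and 2 211F, grouped by the titles in the labels. The authors deposited FPKM per Ensembl gene in a table of 50679 genes. TopHat2 2.0.13, DESeq2 and GRCm38 are listed by the submitters' processing notes without a role or order. What program computed FPKM, with which annotation and strand setting, is not stated in these sources; the library kit was strand-specific, per the labels' protocols. FPKM is relative, so a very abundant gene lowers the values of others. Symbols matched 50369 identifiers, and positions are from GENCODE M21 on GRCm38. Exons of 3 members (Wdr45, Atg9a and Pink1) overlap a gene on the same strand, so their levels are uncertain. Those of 13 members overlap a gene on the opposite strand, and their levels are uncertain if counting did not use strand.

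From these values log2(FPKM + 1) was computed, which understates changes of low genes, and genes whose mean reached 1 FPKM were tested with limma 3.58.1 in R 4.3.3 (intensity trend, two-sided, Benjamini-Hochberg over all tested genes, threshold 0.05). The test was checked on simulated data. In 1971 genes with a single transcript of at least 3000 bp, 88.3% to 91.4% of low values fell within 0.1 of a whole fragment, which set the depth relative to WT 1 at 1.72 (WT 2), 1.09 (211F 1) and 0.941 (211F 2), if libraries were not rescaled.

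The members, lists and rules were chosen with earlier results of these data known. Values in every library were to be given for the ATG8 genes, members with separate groups and a difference of at least 0.5, members with a highest value 4 times the lowest, and the highest member of each role; other members were named after their values were seen. In each related list the 2 genes of smallest p were named. Alternatives were the pseudocount, the filter, the normalization, the trend, the replicate block and leaving out each library.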

Additional observations from a re-analysis of the deposited data

How the results depend on the processing

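limma called 0 genes and 0 autophagy members in the 12 alternatives, with a smallest adjusted p for a member of 0.642; at an unadjusted p under 0.05 the genes numbered 241 as designed, 745 unfiltered, where more genes enter, 142 under the replicate block and 221 to 836 with a library left out. Map1lc3a and Calcoco1 were at an unadjusted p under 0.05 in every alternative, all with a negative difference; Gabarapl1 was not with the replicate block or without WT 1, 211F 1 or 211F 2. Negative members numbered 24 to 31 over all alternatives. The median difference was -0.14 with quantile normalization and -0.26 to -0.042 with a library left out (lowest without 211F 2, highest without 211F 1). The share of members with separate groups was 31.7%, against 26.8% of all tested genes. It was 58.5% to 78% with a library left out, where a lone library meets 2 and separation is easier. No share over all tested genes is given for that range, so it cannot be read as a trait of the members. With all libraries kept, 3 of 326 member values turned sign: Atg12 with quantile normalization (-0.018) and median centring (-0.001), and Becn1 with quantile normalization (-0.04). With a library left out, 29 of 164 turned, in 23 members, whose ranges were Gabarapl2 -0.099 to 0.24, Atg3 -0.24 to 0.72, Atg4a -0.20 to 0.17, Atg4b -0.55 to 0.31, Atg4c -0.035 to 0.92, Atg4d -0.56 to 0.74, Atg10 -0.19 to 0.50, Atg12 -0.058 to 0.079, Atg16l2 -1.03 to 0.36, Ulk2 -0.33 to 0.14, Rb1cc1 -0.082 to 1.04, Becn1 -0.31 to 0.38, Pik3c3 -0.34 to 0.40, Pik3r4 -0.37 to 0.001, Atg2a -0.38 to 0.099, Atg2b -0.17 to 0.69, Atg9a -0.40 to 0.28, Wipi1 -0.14 to 0.34, Wipi2 -0.15 to 0.031, Sqstm1 -0.76 to 0.21, Pink1 -1.47 to 0.037, Tfeb -0.96 to 0.11, Tfe3 -0.34 to 0.20. The other 18 members did not turn in any alternative run, but 13 of the 41 have separate groups, which leaving out a library cannot turn. In those fits the remaining single library is assumed to vary like the other group. The replicate numbers are not said to pair libraries, and libraries with the same number deviated from their group means with r = -0.465 over 12767 genes; with the replicate block the members had the same 27 negative differences by count, a median of -0.12, 31.7% with separate groups, and 0 calls. With no counts deposited, counting error could not be given.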
